A study of Microcebus murinus with 8 samples.

Results

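MiR-126, miR-221 and miR-222 (mmr-miR-126, mmr-miR-221 and mmr-miR-222 in the deposited tables) were followed in the blood plasma of Microcebus murinus, the grey mouse lemur, a small Madagascan primate. They were taken by name and make up 3 of the 108 microRNAs listed in each table. Small RNA was sequenced from 8 plasma samples labelled wild type: 4 from animals fed a dairy fat-based diet (samples 1 to 4) and 4 from animals fed a vegetable fat-based diet (samples 5 to 8). Age, sex, length of feeding and an untreated group are not given in the labels used here, and nothing there says that each sample came from its own animal, so the p-values here measure spread among samples that may not all be separate animals. Values are reads per 1000000 (RPM), counted over the 108 listed microRNAs. All 3 members were above the filter on low values (1 RPM in at least 4 samples), as were 104 of the 108.

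In human and mouse, miR-126 lies in an intron of EGFL7, a gene of endothelial cells, which line the blood vessels. It represses SPRED1 and PIK3R2, which restrain signalling by the vessel growth factor VEGF, and VCAM1, which holds leukocytes to the vessel wall. MiR-221 and miR-222 are encoded side by side on the X chromosome, share a seed and so many targets, and repress the receptor KIT and the cell cycle inhibitor CDKN1B. All 3 are also found in platelets, so their presence in plasma does not by itself name a cell of origin. The tables give the names without the arm of the hairpin, so the arm counted for each is not known here.

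Of the 3, miR-126 was the most abundant and miR-222 the scarcest in every sample. MiR-126 ranked 17th of the 108 by mean level, miR-221 53rd and miR-222 76th. In each library all values were whole multiples (within 0.01 of a read) of one step, which gave an implied total of 1.41 to 3.44 M reads (M, 1000000) for dairy fat samples and 1.06 to 4 M for vegetable fat samples. At these depths miR-222 rested on 94 to 245 implied reads per sample, miR-221 on 678 to 1597 and miR-126 on 7863 to 23505. Intervals below cover counting error alone, since reads of a PCR library need not be separate molecules.

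MiR-126 stood at 7998, 6402, 2287 and 7322 RPM in dairy samples 1 to 4 and at 3193, 4313, 2127 and 11325 RPM in vegetable samples 5 to 8. Vegetable sample 8 was the highest and vegetable sample 7 the lowest, so the vegetable fat samples enclosed all of the dairy fat samples. Between the lowest and the highest sample lay a factor of 5.33.

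MiR-221, the more abundant member of its cluster, stood at 940.0, 242.6, 197.2 and 447.6 RPM in dairy samples 1 to 4 and at 485.9, 550.2, 189.3 and 757.5 RPM in vegetable samples 5 to 8. Dairy sample 1 was the highest and vegetable sample 7 the lowest, a factor of 4.97 apart, and the diets overlapped.

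MiR-222 stood at 173.9, 33.51, 33.16 and 74.14 RPM in dairy samples 1 to 4 and at 60.25, 107.2, 28.72 and 88.56 RPM in vegetable samples 5 to 8. Dairy sample 1 was again the highest and vegetable sample 7 the lowest, a factor of 6.06 apart. Dairy samples 2 and 3 could not be told apart by counting error (exact 95% intervals of 27.4 to 40.6 and 27.4 to 39.8 RPM), and vegetable sample 7 overlapped both (23.7 to 34.5 RPM). Vegetable sample 7 and dairy sample 3 were the lowest and second lowest for all 3 microRNAs.

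**Figure D1:**
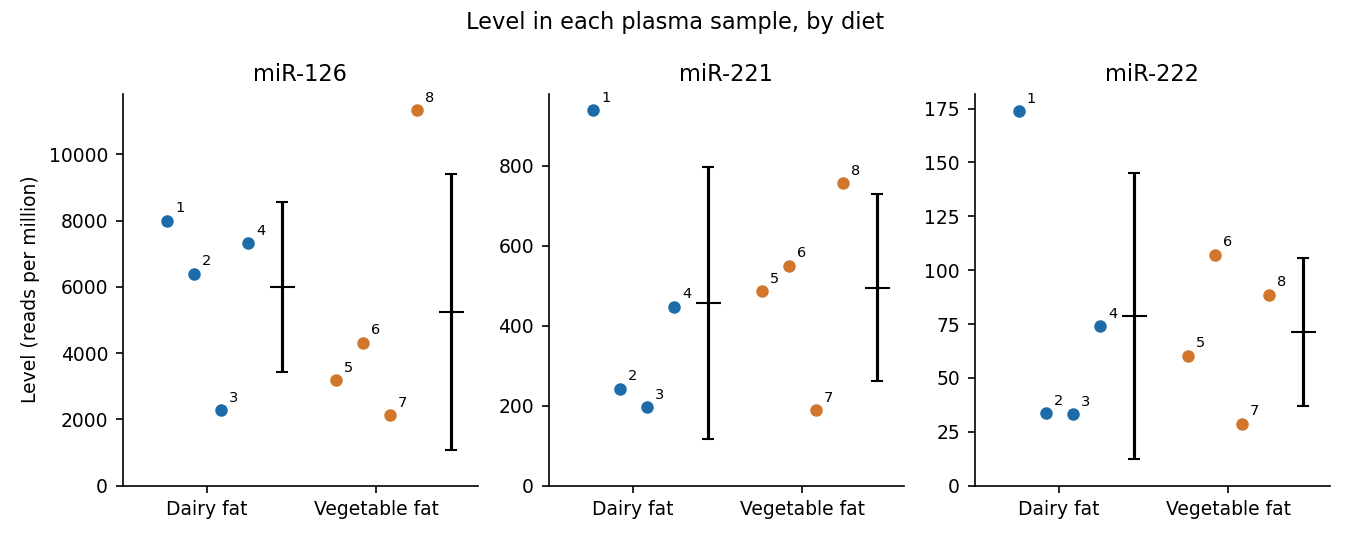
Level of miR-126, miR-221 and miR-222 (y axis, RPM, linear) in each plasma sample, grouped by diet, with sample numbers beside the points and the mean ± SD of 4 samples in black. Samples 7 and 3 are the lowest in all panels, sample 8 is the highest for miR-126, and sample 1 is the highest for miR-221 and miR-222.

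The comparison of the diets asked whether the source of dietary fat went with the level of these microRNAs. None of the 3 passed the test, and none separated the diets. MiR-126 averaged 6002 ± 2562 RPM with dairy fat and 5239 ± 4154 RPM with vegetable fat (SD, n = 4 each), a log2 difference of −0.34 ± 0.54 (SE). The 95% interval of that difference ran from −1.55 to 0.86, that is from 0.342 to 1.82 times the dairy fat level. MiR-221 averaged 456.9 ± 340.0 RPM with dairy fat and 495.7 ± 234.9 RPM with vegetable fat, with a log2 difference of 0.23 ± 0.56 and an interval from −1.02 to 1.48, or 0.495 to 2.79 times. MiR-222 averaged 78.69 ± 66.35 and 71.19 ± 34.28 RPM, with a log2 difference of 0.05 ± 0.62 and an interval from −1.32 to 1.42, or 0.40 to 2.67 times. For each of the 3, limma on log2(RPM + 1) gave an adjusted p of 0.999 over the 104 microRNAs tested. The background is the same: limma called 0 of 104 (0%) at an adjusted p under 0.05, 0 had an unadjusted p under 0.05 (0 also without limma's trend and robust options), and the samples of the diets were apart for 0 of 104 (0%). Single samples moved the estimates: leaving out dairy sample 3 gave −0.079 for miR-221 and −0.25 for miR-222, while leaving out dairy sample 1 gave 0.67 and 0.54. For miR-126 the lowest estimate was −0.81 (vegetable sample 8 left out) and the highest −0.0077 (vegetable sample 7 left out).

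The members varied more between samples than most listed microRNAs. The SD of log2(RPM + 1) over the 8 samples was 0.89 for miR-126, 0.88 for miR-221 and 0.91 for miR-222, against a median of 0.48 over the 104 tested, which put them at positions 21, 22 and 20 of 104.

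MiR-221 and miR-222 varied together from sample to sample. Across the 8 samples Pearson's r on log2(RPM + 1) was 0.958 (exact permutation p = 0.000769, adjusted over the 3 pairs of members 0.00231), and Spearman's rho was 0.952 (exact permutation p = 0.00114, adjusted 0.00342). Without dairy sample 3 and vegetable sample 7, the samples farthest from the median of miR-221, r was 0.926 over 6 samples (exact permutation p = 0.0153, adjusted 0.0458) and rho was 0.886 (adjusted exact permutation p = 0.10), and with 1 sample left out r ran from 0.944 to 0.976. Centred on each diet's mean it was 0.964. The diets hold 4 samples each, too few for an r within one diet.

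MiR-126 followed the cluster less closely by these estimates. Its r was 0.727 with miR-221 (exact permutation p = 0.0501, adjusted 0.0751) and 0.641 with miR-222 (exact permutation p = 0.0923, adjusted 0.0923), while rho was 0.786 and 0.762 (exact permutation p = 0.0279 and 0.0368, both 0.0368 adjusted). Without dairy sample 3 and vegetable sample 7, the lowest for miR-126, r was 0.331 with miR-221 and 0.239 with miR-222, and rho 0.486 and 0.429. Without dairy sample 3 alone r was 0.643 and 0.558, and without vegetable sample 7 alone 0.625 and 0.515. Taking out both also narrows the range of miR-126, and how far the relation depends on these samples was not tested. Dairy sample 2 lay farthest from the relation, with miR-126 at 6402 RPM beside a miR-221 of 242.6 RPM. Without that sample r was 0.860 and 0.792, the highest values when each of the 8 samples was left out in turn. The sample was picked by its distance from the same relation, so its removal is no test of it. Centred on each diet's mean, r was 0.781 with miR-221 and 0.661 with miR-222 (permutation p of the centred values, adjusted, 0.0337 and 0.0762). That permutation takes no account of the diet means fitted first, so its p can be too small. That the r of miR-126 with the cluster was lower than that within the cluster was not tested.

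**Figure D2:**
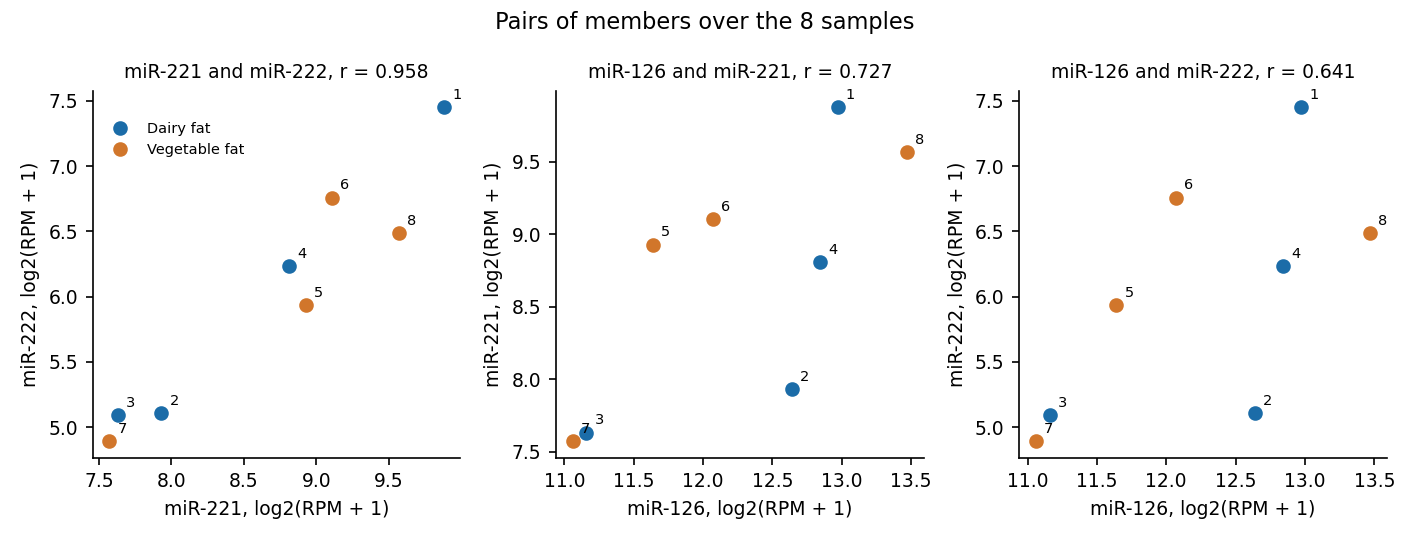
Each panel plots 1 pair of members on log2(RPM + 1) axes, 1 point per plasma sample, coloured by diet and numbered. MiR-221 and miR-222 lie close to a line (r = 0.958), while for miR-126 sample 2 sits to the lower right (r = 0.727 and 0.641).

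The plain ratio of miR-221 to miR-222 does not depend on how a library was scaled. The log2 ratios given here and below are differences of log2(RPM + 1), so they depend on it slightly. Their mean over the 8 samples was 2.70 when 0.1 was added in place of 1, and 2.60 when 5 was added. MiR-221 exceeded miR-222 by 5.4, 7.24, 5.95 and 6.04 times in dairy samples 1 to 4 and by 8.07, 5.13, 6.59 and 8.55 times in vegetable samples 5 to 8. MiR-221 was thus the higher in 8 of 8 samples, with a mean log2 ratio of 2.68 ± 0.26 (SD, n = 8; exact sign-flip permutation p = 0.00781, the smallest this design allows). RPM counts reads and is not corrected for how readily each sequence enters a library, and differences in capture between the 2 sequences were not tested. The ratio varied by a factor of 1.67 over the samples, where miR-221 itself varied by 4.97 and miR-222 by 6.06.

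Counting error was part of that spread. The SE of the log2 ratio from read counts was 0.10 to 0.16 per sample, against the SD of 0.26 between samples. Samples 6 and 8, both on vegetable fat, differed beyond it: miR-222 made up 16.3% of the cluster's reads in sample 6 (exact binomial 95% interval 14.3% to 18.5%) and 10.5% in sample 8 (8.54% to 12.7%). Dairy sample 1 lay near sample 6, at 15.6% (13.9% to 17.5%). The other dairy samples lay between 12.1% and 14.4%.

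By diet, the log2 ratio of miR-221 to miR-222 was 2.59 ± 0.17 with dairy fat and 2.78 ± 0.33 with vegetable fat (SD, n = 4 each). The difference of 0.18 was within the spread between samples (two-sided exact permutation p = 0.343, where 70 assignments allow no p under 0.0286), and it was 0.082 with sample 8 left out and 0.33 with sample 6 left out. The 2 highest ratios, those of samples 8 and 5, and the lowest, that of sample 6, all came from vegetable fat.

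The ratio of miR-126 to the cluster was more spread. MiR-126 over the geometric mean of miR-221 and miR-222 was 19.8, 71.0, 28.3 and 40.2 in dairy samples 1 to 4 and 18.7, 17.8, 28.8 and 43.7 in vegetable samples 5 to 8. Dairy sample 2 was the highest, and its ratio was 4 times that of vegetable sample 6, the lowest. On the log2 scale the ratio was 5.14 ± 0.78 with dairy fat and 4.65 ± 0.61 with vegetable fat (SD, n = 4 each), and the difference of −0.48 was within that spread (two-sided exact permutation p = 0.371). Leaving out dairy sample 2 gave −0.15, dairy sample 1 −0.76 and vegetable sample 8 −0.74.

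**Figure D3:**
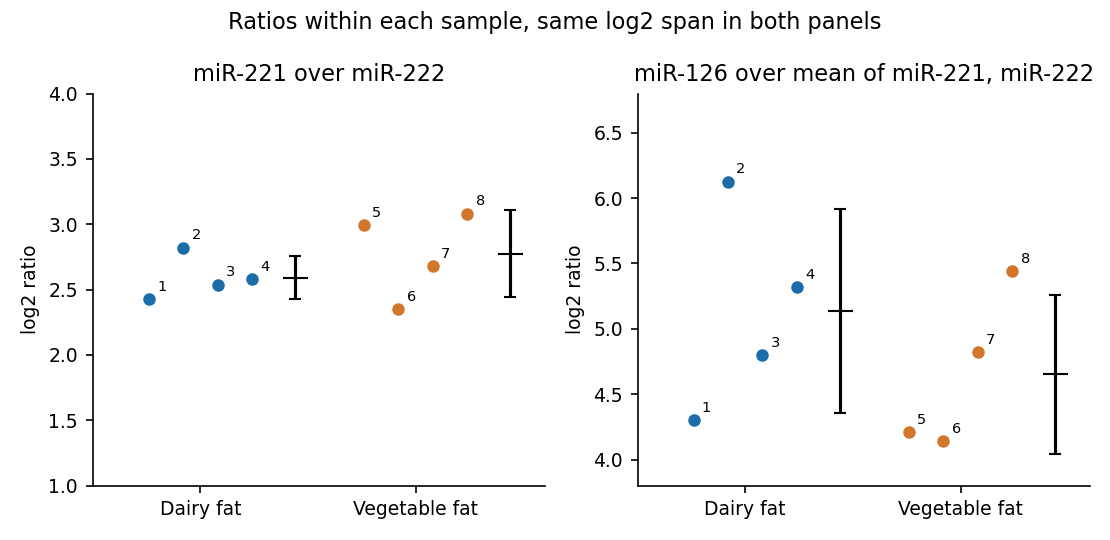
Log2 ratio within each sample (y axis) by diet, for miR-221 over miR-222 and for miR-126 over the mean of miR-221 and miR-222, with the mean ± SD of 4 samples in black. Both panels span the same number of log2 units. The first ratio lies between 2.35 and 3.08 and the second between 4.14 and 6.13, and the diets overlap in both.

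All 3 members tended to be lower in libraries with more reads, by a relation that depended on the samples kept, the scaling and the measure of correlation. Against log2 of the implied read total, r was −0.745 for miR-126, −0.836 for miR-221 and −0.786 for miR-222 (exact permutation p = 0.0408, 0.0145 and 0.0271; adjusted over the 3 members 0.0408, 0.0406 and 0.0406, and over the 5 relations with read total, the ratios below included, 0.0679, 0.0677 and 0.0677), and rho was −0.905, −0.881 and −0.857 (exact permutation p, adjusted, 0.0107 for each). The totals of samples 8, 1 and 6 (1.06 to 1.86 M) lay apart from those of the other 5 (3.1 to 4 M). Without samples 8 and 1, the farthest from the median total, r was −0.371 for miR-126, −0.674 for miR-221 and −0.795 for miR-222 over 6 samples (exact permutation p = 0.551, 0.0458 and 0.0278). Over the same 6 samples rho was −0.771, −0.771 and −0.829 (exact permutation p = 0.103, 0.103 and 0.0583). For Pearson's r no adjusted p of the 3 was under 0.05 without dairy sample 3 or without vegetable sample 7 (lowest 0.0685 and 0.103), nor under any of 3 other scalings. For rho the adjusted exact permutation p was 0.048 for each of the 3 without either sample. Under the 3 other scalings it lay between 0.0321 and 0.0458, apart from miR-222 after centring on all tested microRNAs (0.0962).

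The ratios did not move with the read total in the same way: r was −0.063 for miR-221 over miR-222 and 0.091 for miR-126 over the cluster (exact permutation p = 0.878 and 0.826). Taking residuals on the read total, r between miR-221 and miR-222 was 0.886 and rho 0.81 (permutation p of the residuals, adjusted, 0.0397 and 0.0653). The r of miR-126 was 0.285 with miR-221 and 0.135 with miR-222 (adjusted 0.713 for both). These permutations take no account of the line fitted on the read total, so their p can be too small. With the read total as a covariate the diet estimates were −0.57 for miR-126 (95% interval −1.23 to 0.09, limma adjusted p = 0.93), −0.0026 for miR-221 and −0.19 for miR-222. The part of the read total in the levels was not tested further.

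**Figure D4:**
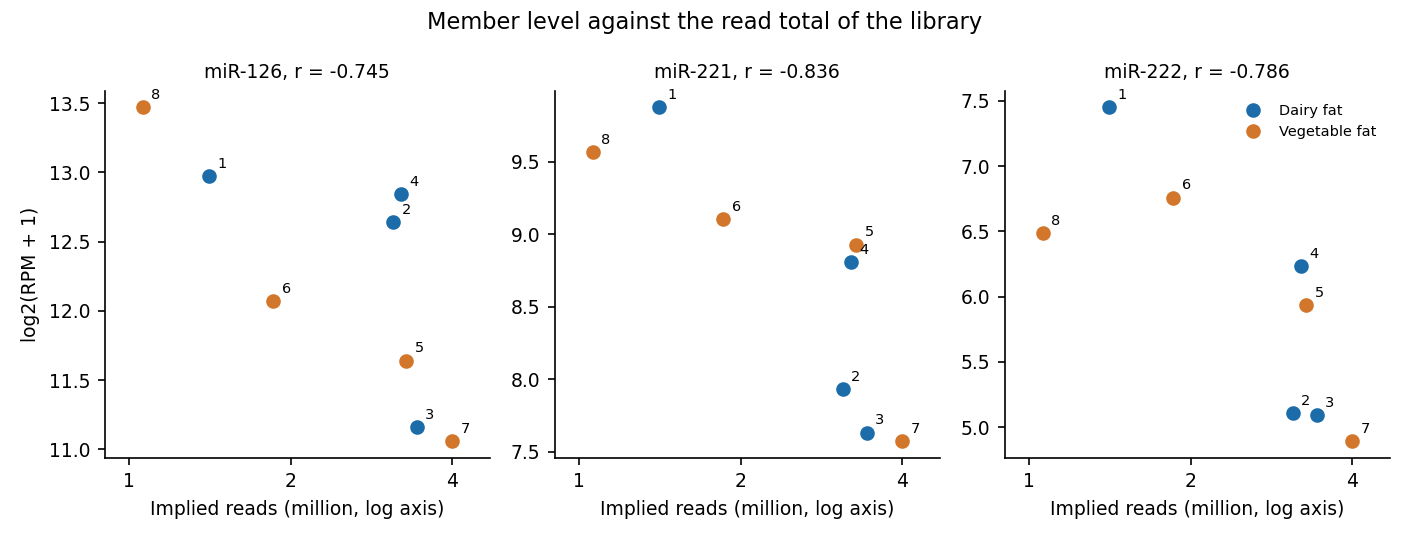
Level of each member (y axis, log2(RPM + 1)) against the implied read total of its library (x axis, M reads, log axis), 1 point per sample, coloured by diet and numbered. All 3 slope downward, with r of −0.745, −0.836 and −0.786, and samples 8, 1 and 6 lie apart at the left.

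High correlations were common among the listed microRNAs, so the members' values are set against all pairs. Over the 5356 pairs of tested microRNAs the median r was 0.18, and 41 pairs (0.766%) were as high as miR-221 with miR-222 or higher. Of these 41, 3 were pairs listed with identical values: miR-103a with miR-103b, miR-92a with miR-92b, and miR-218a with miR-218b. By contrast 897 pairs (16.8%) were as high as miR-126 with miR-221, and 1238 (23.1%) as high as miR-126 with miR-222. MiR-222 ranked second of the 103 partners of miR-221, and miR-221 second of those of miR-222. After each library was centred on the mean log level of all tested microRNAs, which removes shifts they share, r was 0.916 for miR-221 with miR-222, the highest for either (3.12% of pairs as high). The same centring gave 0.493 and 0.345 for miR-126 with miR-221 and miR-222.

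**Figure D5:**
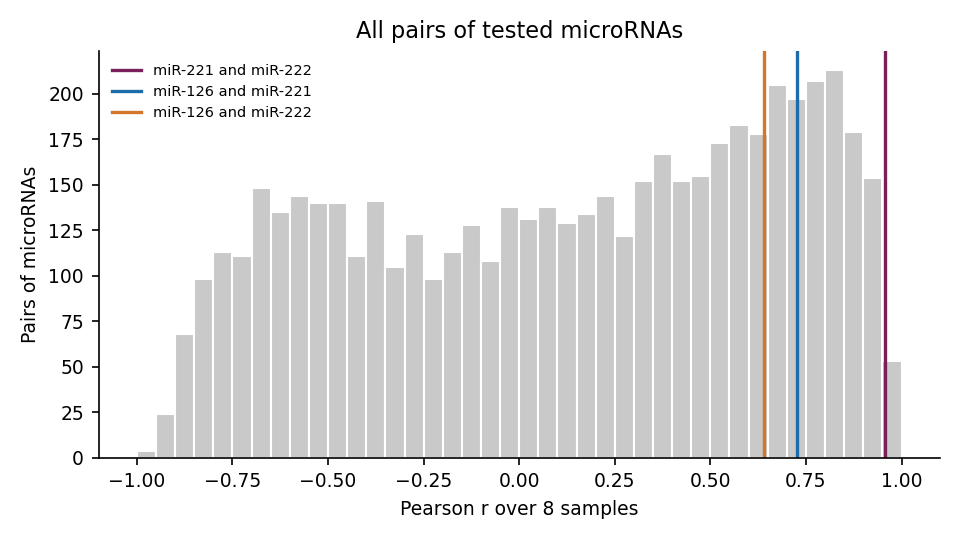
Number of pairs of tested microRNAs (y axis) by Pearson's r of log2(RPM + 1) over the 8 samples (x axis), for all 5356 pairs, with the 3 pairs of members as vertical lines. The line of miR-221 and miR-222 lies near the right end, at 0.958, and those of miR-126 lie at 0.727 and 0.641, among many other pairs.

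The microRNAs most like each member were named by r, as a description over 8 samples that share one read total per library. For miR-221 they were miR-214 (r = 0.962), miR-222 (0.958) and miR-23b (0.954), and for miR-222 they were miR-100 (0.958), miR-221 (0.958) and miR-214 (0.957). MiR-214 is known from mesenchymal tissue, and miR-23b is encoded beside miR-27b and miR-24. MiR-126 stood nearest to miR-199 (0.922), miR-411a (0.912) and miR-136 (0.904). Scarce partners rest on few reads in vegetable sample 7, their lowest: miR-136 on 1 implied read, miR-411a on 14 and miR-214 on 16. MiR-199 is abundant in mesenchymal cells and also found in platelets, and miR-411a and miR-136 belong to families of the imprinted DLK1-DIO3 cluster. The lowest r was that of miR-186 for miR-126 (−0.817), of miR-15a for miR-221 (−0.852) and of miR-301a for miR-222 (−0.918). After centring on all tested microRNAs the r of these partners with their members ran from 0.84 to 0.916 for the nearest, and was −0.747, −0.863 and −0.932 for the 3 farthest.

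The other listed microRNAs of endothelium and vessel growth did not follow the members as one group. The 26 names in that list matched 20 listed microRNAs, the members included, where the name miR-218 matched both miR-218a and miR-218b. The other 17 were tested, and the counts below take miR-218a and miR-218b separately although their values are identical. In the comparison of diets 0 rose and 0 fell, with 11 estimates above 0 and 6 below and a median of 0.14, against 0.07 for all tested. Their r with miR-221 was above 0 for 13 of the 17 and ran from −0.61 for miR-20 to 0.954 for miR-23b. MiR-24 (0.905) and miR-27b (0.835), of the miR-23b cluster, lay at the upper end, as did miR-10a (0.94), whose family acts on vessel growth in zebrafish, and miR-100 (0.94), which represses mTOR in human cells. The r of miR-132, a microRNA of growing vessels and of neurons, was 0.922, and that of miR-130a was 0.862. MiR-10 (0.861), miR-424 (0.631) and miR-218a with miR-218b (0.627 each, held at identical values in all samples) were also above 0. Members of the miR-17 to miR-92 clusters lay lower: miR-92a at 0.342, miR-17 at 0.042, miR-19b at −0.56 and miR-18 at −0.572. MiR-296, which acts on growth factor receptor turnover in endothelial cells, was at −0.116. With miR-126, r was above 0 for 11 of the 17 and ran from −0.693 for miR-20 to 0.824 for miR-132. The 17 summed to 20515 to 35096 RPM with dairy fat and 26782 to 36708 RPM with vegetable fat. The largest parts by mean level were miR-92a and miR-20. They averaged 8480 and 4781 of 27186 RPM with dairy fat, and 9056 and 6229 of 30684 RPM with vegetable fat. Their r with miR-126 was −0.247 and −0.693, so the sum mainly follows microRNAs that did not rise with miR-126.

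Markers of other cells that could contribute to plasma were set beside the members, without the members themselves. In a bulk sample such as plasma, fewer cells of a type and less RNA per cell cannot be told apart. The 3 listed microRNAs of smooth muscle and mesenchyme (miR-145, miR-199 and miR-214, of 5 fixed) summed to 482.6 to 3248 RPM with dairy fat and 431.8 to 4241 RPM with vegetable fat. This sum was lowest in vegetable sample 7 and dairy sample 3 and highest in vegetable sample 8 and dairy sample 1, the samples that also held the 2 lowest and the 2 highest levels of miR-126 and of miR-221. Its 3 microRNAs had r of 0.773 to 0.922 with miR-126, 0.884 to 0.962 with miR-221 and 0.819 to 0.957 with miR-222.

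Sums of the other lists are given with their range, and whether they moved with the members less than this one was not tested. The 8 listed platelet microRNAs other than the members (of 12 fixed, 11 matched) summed to 204710 to 259940 RPM with dairy fat and 208875 to 256935 RPM with vegetable fat, most of it miR-191. The 4 listed red cell microRNAs (of 7 fixed) summed to 61365 to 99205 and 67361 to 117946 RPM, most of it miR-486. The 3 listed leukocyte microRNAs (of 7 fixed: miR-146a, miR-181a and miR-342) summed to 2777 to 6742 and 1312 to 4162 RPM, with vegetable sample 7 and dairy sample 3 the lowest and dairy sample 1 the highest, as for miR-221 and miR-222. Single microRNAs of these lists also had high r with the members: miR-146a had 0.944 with miR-221 and 0.863 with miR-126, platelet miR-24 had 0.905 and 0.806, and platelet miR-28 had 0.837 and 0.867. Others were low or below 0. With miR-221, r ran from −0.523 to 0.905 for the platelet list, −0.852 to 0.717 for red cells and 0.486 to 0.944 for leukocytes. With miR-126 the ranges were −0.266 to 0.922, −0.774 to 0.225 and 0.247 to 0.863. Vegetable sample 7, the lowest for the members, was second lowest for the red cell and platelet sums. Dairy sample 2, where miR-126 stood high beside the cluster, had the lowest red cell sum and also the lowest sum of the other endothelium microRNAs (20515 RPM). In vegetable sample 7 that endothelium sum was 30957 RPM, at rank 6 of 8 from the lowest. By mean level its largest parts were miR-92a, which is also in the red cell list, and miR-20. The defining markers miR-451a, miR-16 and miR-144 of red cells, miR-223 of platelets and myeloid cells, miR-142, miR-150 and miR-155 of leukocytes, and miR-143 and miR-133a of muscle are not analysed here. The part of these cells in the members' levels was not tested.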

How the data were processed

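Per the labels' protocols, plasma RNA came from the miRNeasy Micro kit and libraries from the QIAseq miRNA kit. Cutadapt 3.4 was used, per the submitters' processing notes. For the aligner, the reference and the handling of molecular identifiers, the method is not given in the sources used here. RPM values were made by the authors before they were deposited. Each sample's values summed to 1000000 over the 108 listed microRNAs, so a rise of one lowers the others. In the vegetable fat tables the column header's number differs from the title's, and samples are numbered here by title.

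From the RPM, limma 3.58.1 (R 4.3.3; trend and robust options) was fitted to log2(RPM + 1) of the 104 microRNAs that reached 1 RPM in 4 or more samples, adjusted by Benjamini-Hochberg, with a threshold of 0.05. The planned count test was not run, because with so few low values listed the implied reads could not be verified as counts. The counting intervals and SEs above rest on these implied reads. Ratios and correlations were tested by two-sided exact permutation in Python 3.11.15. The members and lists were chosen with earlier results of these data known. Named are the members, the 3 most and 1 least correlated microRNAs of each, and the endothelium list. Lists were matched by name with or without the final letter. Every pair of files differed by more than counting noise, so none was a copy of another and each was used as 1 sample. That check cannot tell whether libraries came from the same animal. Alternatives were other pseudocounts, scalings, no filter, a read total covariate and leaving out each sample.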

Additional observations from a re-analysis of the deposited data

How the results depend on the processing

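The diet comparison called 0 microRNAs in each of the 16 alternatives run, where limma's smallest adjusted p was 0.56 to 0.999, the former with vegetable sample 7 left out. Unadjusted, 0 to 4 microRNAs had p under 0.05. Upper quartile factors shifted the median estimate of all microRNAs from 0.07 to −0.15. The edgeR alternative was not run. The signs for miR-221 and miR-222, neither called, changed: with read total as a covariate they were −0.0026 and −0.19, and miR-222 was −0.17 with upper quartile factors and −0.010 after centring on all microRNAs. With 1 sample left out miR-221 ran from −0.079 to 0.67 and miR-222 from −0.25 to 0.54. MiR-126 was below 0 in all 16. The correlation of miR-221 with miR-222 kept an adjusted p under 0.05 by Pearson's r in all 16 of its alternatives. By rho it did not after centring on all microRNAs (0.762, adjusted exact permutation p = 0.11), on residuals (0.0653) or without the 2 farthest samples (0.10). Centred on each diet's mean, r of miR-126 was 0.781 with miR-221 and 0.661 with miR-222 (permutation p of the centred values, adjusted, 0.0337 and 0.0762). A permutation p after centring on diets or on residuals takes no account of the fitted terms and can be too small. Whether the first of these passes is therefore not settled. With each of the 8 samples left out in turn, both r of miR-126 had an adjusted exact permutation p under 0.05 only without dairy sample 2. That sample lay farthest from the relation, so its removal is no test of it. With 1 sample left out r of miR-126 ran from 0.625 to 0.860 with miR-221 and from 0.515 to 0.792 with miR-222. Against read total, r of miR-126, miR-221 and miR-222 was −0.598, −0.734 and −0.664 with upper quartile factors, −0.598, −0.766 and −0.705 with a trimmed mean of log ratios, and −0.547, −0.725 and −0.651 after centring. With 1 sample left out these ran from −0.864 to −0.596, −0.899 to −0.788 and −0.901 to −0.723. The cause of these changes was not tested. Both ratio differences stayed short of the threshold in their 10 alternatives. No paired analysis was run, because the labels used here do not link samples across the diets. Depth limits miR-222 most, at 94 implied reads in vegetable sample 8.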

Other observations

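In each diet the 4 values of each member and of both log2 ratios were searched for 1 sample far from the other 3, and 0 of these 10 searches found one.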
